A study of Mus musculus with 12 samples.

Results

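The 36 genes described here encode the folding machinery of the endoplasmic reticulum and the pathways that sense and answer an overload of unfolded protein there. They were listed by symbol for their known roles. Each gene was read from its brightest probe set with a single gene symbol, and 36 of 36 were found among the 18193 genes measured. Ero1l, the oxidase that recharges disulfide isomerases, was found under its current symbol Ero1a.

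The arrays ask which transcripts the B-lineage factors EBF1 and PAX5 change in progenitors that lack EBF1. All 12 one-colour Affymetrix arrays hold total RNA of C57BL/6 Ebf1-/- pre-pro-B cells, so the loss of Ebf1 is shared by every group, controls included. The cells grew on a layer of OP9 cells, which are stromal cells from mouse bone marrow, in medium with 4% serum, IL-7 at 5 ng/ml, and SCF and Flt3L at 10 ng/ml each. The 4 groups of 3 arrays are control (MigR1, a retrovirus that carries GFP alone) and EBF1 (Mig-EBF1) in a first set, and control (MigR1) and PAX5 (Mig-PAX5) in a second. All cells were sorted as GFP-positive 2 days after transduction, and each factor was expressed from its retrovirus rather than from its own locus. Whether the replicates of a group were grown apart or taken from different mice is not stated in the labels. The p-values therefore refer to the scatter among these samples alone, and that scatter may be technical.

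The control arrays that carry the same number in both sets were much closer (robust SD of the log2 difference 0.0392 to 0.0942) than control arrays of unequal number (0.287 to 0.374). Such pairs were therefore counted as the same hybridisations, so the EBF1 and PAX5 comparisons share their controls. PAX5 arrays 2 and 3 differed by 0.0774, where the remaining pairs inside a group gave 0.211 to 0.359, and their mean was used as 1 sample. The fit thus rests on 3 control samples, 3 with EBF1 and 2 with PAX5. This number limits the precision of every change below. The fit treats control and EBF1 arrays of equal number as unpaired. Among the fits, array number entered as a replicate block only in alternatives. Intensity over all probe sets had a median of 55.1 to 60.6 on the first-set arrays and 65.3 to 68.9 on the second-set arrays. The Pax5 probe set read 891 to 1849 on PAX5 arrays against 7.98 to 12.8 on second-set controls, whereas the Ebf1 probe set read 1886 to 2477 on EBF1 arrays and 2027 to 2173 on first-set controls and so checks no label. Of the pre-pro-B markers, Ptprc (CD45) read 5693 to 6434 and Flt3 1823 to 2927 on first-set controls. Summed over 7 pro-B markers, intensity was 10914 to 26686 on EBF1 arrays against 319 to 403 on first-set controls, and 4921 to 7341 on PAX5 arrays against 608 to 687 on second-set controls. The PAX5 sum includes Pax5 itself and is otherwise mostly Blnk, and the median log2 change of these 7 genes was 0.41 with PAX5, with 2 called. The sum over 10 T and NK markers was 5351 to 9274 on EBF1 arrays against 1895 to 2378 on first-set controls, carried by Gzma (log2 change 6.43, called), while 5 of the 10 lay below 0 and their median was -0.07. The sum over 9 myeloid markers was 382 to 750 on EBF1 arrays against 890 to 2185 on first-set controls. Of these 9 genes, however, 5 had EBF1 estimates above 0, with a median of 0.02. The lowest was Mpo at -1.58, and 0 were called.

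In the endoplasmic reticulum, newly made secretory and membrane proteins enter through the Sec61 channel, are folded by Hsp70- and Hsp90-type chaperones and lectin chaperones, and are cross-linked by disulfide isomerases. Proteins that fail to fold are passed back to the cytosol for degradation. Overload is sensed by the membrane proteins ATF6, IRE1 (Ern1) and PERK (Eif2ak3), which act through cleaved ATF6, spliced XBP1 and ATF4. In the B lineage this response is best known from plasma cells, whose antibody output depends on XBP1, and from the pro-B stage, where immunoglobulin heavy chain is first made and held by the chaperone BiP (Hspa5).

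Promoter sequences of the members are shown first because some of them carry elements through which ATF6, XBP1 and ATF4 are known to act. RefSeq promoter windows of build GRCm38.p6, from 250 bases before to 50 bases after a gene's start, were available for 31 of the 36 members. They were searched on both strands for the endoplasmic reticulum stress element ERSE (CCAAT, any 9 bases, then CCACG), for ERSE-II (ATTGG, any 1 base, then CCACG), for the XBP1-type element TGACGTGG, and for the C/EBP-ATF response element TGATGNAA, bound by ATF4 with a C/EBP partner. ERSE was present in 8 of the 31 member promoters (25.8%) against 0.137% of 27025 genes with a promoter window. ERSE-II was present in 2 (6.45%, against 0.0444%), TGATGNAA in 4 (12.9%, against 4.51%), and TGACGTGG in 0 of 31, against 0.714%. A match is a description of these letters and not of binding, and the elements could overlap each other. The members were listed for their known roles in this response, so a higher share than over all genes is no independent result.

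The ERSE genes were Hspa5, Hsp90b1, Calr, Canx, Creld2, Dnajc3, Pdia6 and Syvn1, and 6 of these promoter stretches are printed 5′ to 3′ on the gene's strand to show the element in the chaperones and in the ubiquitin ligase gene Syvn1. Capitals mark the 5-base ends of the element in either orientation, and positions count from the gene's start.
Hspa5, chr2:34772005-34772063, plus strand, element at -65 to -47: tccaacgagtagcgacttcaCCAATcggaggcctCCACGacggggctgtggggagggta
Hsp90b1, chr10:86705618-86705676, minus strand, element at -212 to -194: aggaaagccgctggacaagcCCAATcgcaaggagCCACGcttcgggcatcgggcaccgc
Hsp90b1, chr10:86705513-86705571, minus strand, element at -107 to -89: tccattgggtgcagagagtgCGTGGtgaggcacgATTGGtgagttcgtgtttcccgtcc
Calr, chr8:84847055-84847113, minus strand, element at -162 to -144: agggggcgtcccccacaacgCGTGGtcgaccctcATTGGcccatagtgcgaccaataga
Creld2, chr15:88819500-88819558, plus strand, element at -126 to -108: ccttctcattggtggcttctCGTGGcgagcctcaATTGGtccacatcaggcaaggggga
Syvn1, chr19:6046512-6046570, plus strand, element at -44 to -26: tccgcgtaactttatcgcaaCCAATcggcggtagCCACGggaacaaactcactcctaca

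ERSE-II was found in Herpud1 and Dnajb11, and TGATGNAA in Asns, Chac1, Herpud1 and Trib3. Stretches of 3 of these genes are printed to show the ATF4-type element in the amino acid genes and Herpud1's pair of elements, again with the fixed letters in capitals.
Asns, chr6:7693210-7693252, minus strand, element at -23 to -16: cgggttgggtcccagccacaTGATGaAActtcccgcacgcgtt
Chac1, chr2:119351029-119351076, plus strand, element at -193 to -186: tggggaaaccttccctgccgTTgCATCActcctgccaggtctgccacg
Herpud1, chr8:94386297-94386344, plus strand, TGATGNAA at -112 to -105: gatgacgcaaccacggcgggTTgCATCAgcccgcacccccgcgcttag
Herpud1, chr8:94386357-94386407, plus strand, ERSE-II at -52 to -42: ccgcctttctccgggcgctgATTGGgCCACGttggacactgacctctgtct

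No member passed limma's test (adjusted p under 0.05 over all 18193 genes) with EBF1, with PAX5, or for the difference between the EBF1 and PAX5 changes. The background of genes called was 0.22% with EBF1, 0.874% with PAX5 and 1.94% for the difference, so 0 of 36 is close to the share of all genes. At an unadjusted p under 0.05, limma gave 3 members with EBF1 (8.33%, against 11.6% of all genes), namely Sdf2l1, Syvn1 and Chac1. With PAX5 it gave 4 (11.1%, against 9.45%), namely Syvn1, Ppp1r15a, Asns and Sesn2. For the difference it gave 8 (22.2%, against 17%): Sdf2l1, Manf, Creld2, Pdia6, Atf6, Asns, Chac1 and Sesn2. Each share lies near its background. In such bulk samples, fewer cells of a type and less RNA per cell cannot be told apart.

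The intervals give bounds on what could have been missed, in the fit that treats the arrays as unpaired. With EBF1 the 95% confidence interval of the change lay within 2-fold in either direction for 32 of 36 members and within 1.5-fold for 26. With PAX5 it lay within 2-fold for 30 and within 1.5-fold for 20. The members with wider intervals than 2-fold in either comparison were Trib3, Ppp1r15a, Ero1a, Syvn1, Chac1, Edem1 and Asns, which are genes of protein degradation, redox balance and the ATF4 arm rather than the abundant chaperones.

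With EBF1, 28 of the 36 estimates lay above 0, with a median log2 change of 0.12, beside 53.1% of all genes and a median of 0.01. With PAX5, 12 lay above 0, with a median of -0.10, beside 48.1% and -0.01. The difference between the changes was above 0 for 30 members, with a median of 0.19, beside 53.5% of all genes and a median of 0.02. Both comparisons use the same control hybridisations, so a high or low control moves them together. On single arrays, as log2 differences from the mean of own-set controls, the median over members was 0.14, 0.15 and 0.03 with EBF1 against -0.02, 0.13 and -0.09 on first-set controls. It was -0.08, -0.10 and -0.11 with PAX5 against -0.02, 0.10 and -0.05 on second-set controls. The PAX5 medians lay below all 3 of their controls, while the EBF1 medians overlapped theirs.

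**Figure D1:**
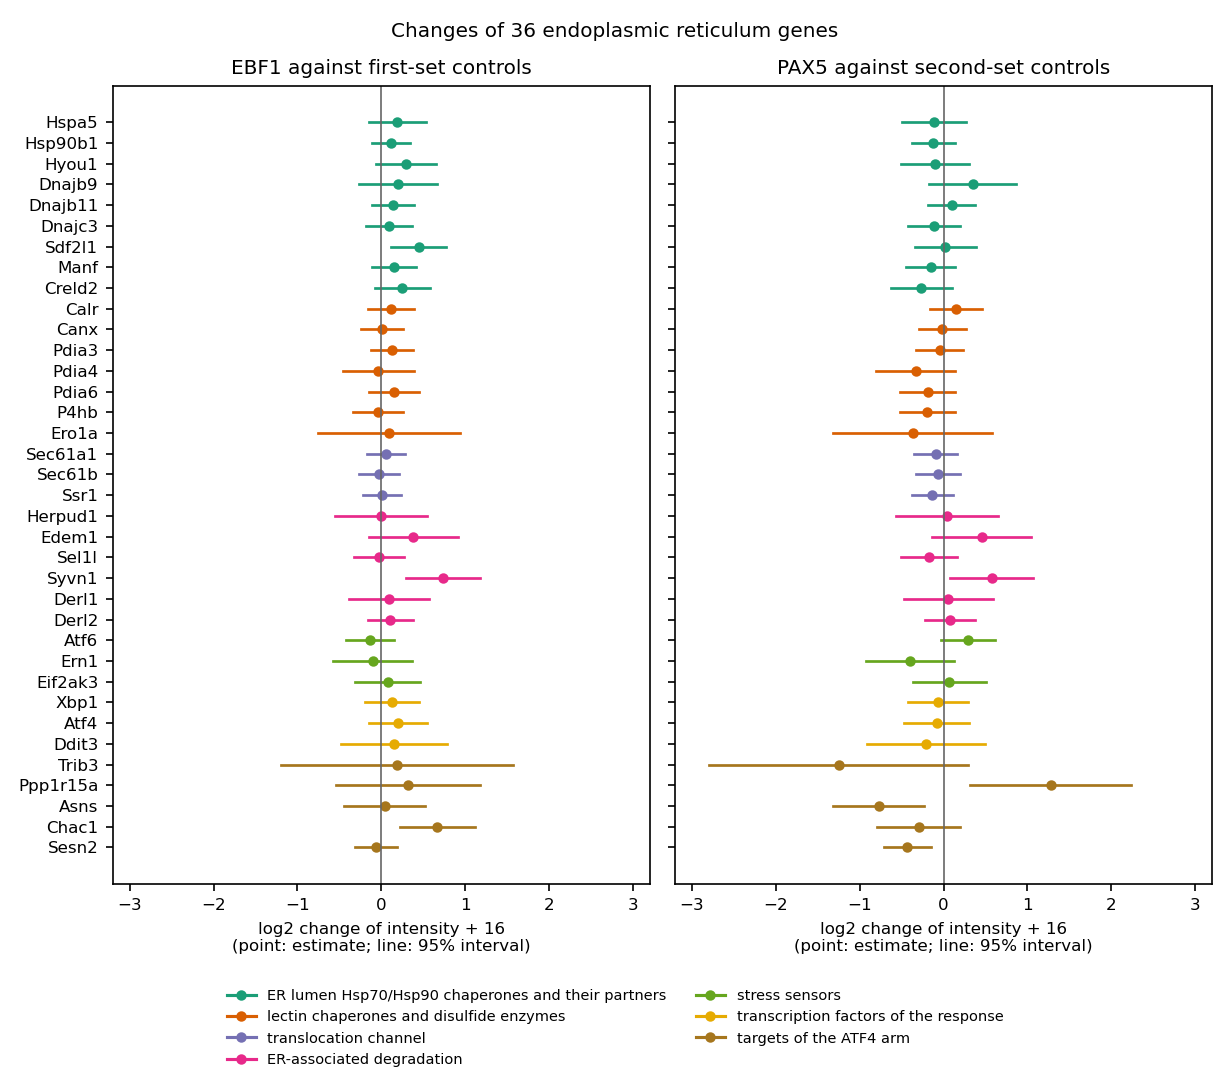
Log2 change of each of the 36 genes (x axis, intensity + 16, with 95% intervals from limma) in the EBF1 comparison (left) and the PAX5 comparison (right), coloured by role group. The EBF1 estimates run from -0.13 (Atf6) to 0.74 (Syvn1) and the PAX5 estimates from -1.25 (Trib3) to 1.28 (Ppp1r15a), and 0 members pass an adjusted p of 0.05 in either.

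Control array 2 stood out for these genes. It was the highest of the 3 first-set controls for 23 of 36 members, against 6687 of 18193 genes. That held for 7 of the 9 lumen chaperones and partners, 3 of the 3 transcription factors and 4 of the 5 targets of the ATF4 arm. Its median over members was 0.13 above the control mean on the log2 scale, and those of control arrays 1 and 3 were -0.02 and -0.09. Without control array 2, 31 members lay above 0 with EBF1 (median 0.21) and 16 with PAX5 (median -0.04), and again 0 passed in either. Other arrays moved the EBF1 values the opposite way: without control array 3, 24 members lay above 0 (median 0.04), and without EBF1 array 2, 23 did (median 0.09). What set this array apart was not tested.

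**Figure D2:**
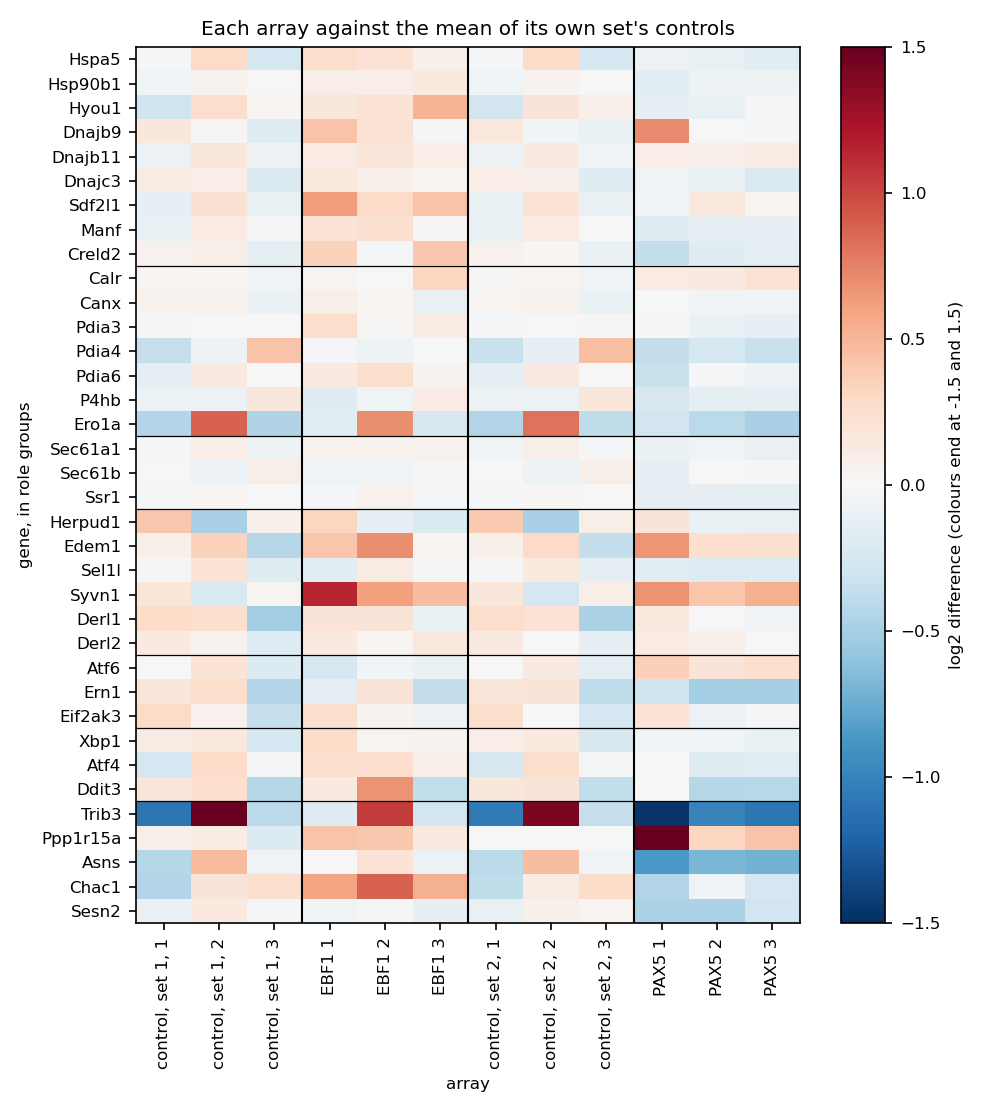
Log2 difference of each array (columns) from the mean of its own set's controls for the 36 genes (rows, in role groups), with colours ending at -1.5 and 1.5. Control array 2 is the highest first-set control for 23 of the 36 genes, and Trib3 and Ero1a show the widest spread among controls.

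The Hsp70- and Hsp90-type chaperones of the lumen and their partners comprise 9 members, and 0 passed in any comparison. With EBF1 all 9 estimates lay above 0 (median 0.19, from 0.09 for Dnajc3 to 0.44 for Sdf2l1), and with PAX5 3 did (median -0.11, from -0.26 for Creld2 to 0.35 for Dnajb9). Dnajb9 read 965 on PAX5 array 1, against 584 and 570 on PAX5 arrays 2 and 3 and 537 to 652 on second-set controls. Hspa5, the master chaperone BiP that also holds the sensors inactive, read 4675, 5766 and 3933 on the first-set controls and 5708, 5512 and 4999 on the EBF1 arrays. It read 4553, 5601 and 3895 on the second-set controls and 4375, 4273 and 4109 on the PAX5 arrays. All EBF1 and PAX5 values lay inside the range of their controls. The log2 change of Hspa5 was 0.19 ± 0.15 (SE) with EBF1 (95% interval -0.15 to 0.53, limma adjusted p = 0.68) and -0.11 ± 0.17 with PAX5 (-0.49 to 0.26, adjusted p = 0.91). The EBF1 value was 0.056 without control array 3, 0.33 without control array 2 and 0.33 with the mean of its probe sets, and the PAX5 value was 0.024 without control array 2.

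Hsp90b1, the lumen Hsp90 Grp94, was steadier. Its intensities were 4593, 4977 and 4815 on first-set controls against 5128, 5154 and 5291 with EBF1, and 4527, 4904 and 4725 on second-set controls against 4205, 4480 and 4476 with PAX5. The EBF1 arrays were thus all above their controls and the PAX5 arrays all below them, without overlap, although both shifts were small. The log2 change was 0.11 ± 0.10 with EBF1 (-0.11 to 0.34, limma adjusted p = 0.72) and -0.12 ± 0.11 with PAX5 (-0.37 to 0.13, adjusted p = 0.84), and the difference of 0.23 had an adjusted p of 0.33.

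Sdf2l1, a partner that keeps Hsp40 and BiP substrates from aggregating, read 512, 658 and 517 on first-set controls and 870, 683 and 756 on EBF1 arrays. It read 532, 663 and 527 on second-set controls and 549, 640 and 586 on PAX5 arrays. The EBF1 values did not overlap their controls, whereas the PAX5 values lay among theirs. Its log2 change was 0.44 ± 0.14 with EBF1 (0.12 to 0.77, limma adjusted p = 0.28) and 0.02 ± 0.16 with PAX5 (adjusted p = 0.99), a direction that turned to below 0 with quantile normalization, and the difference of 0.42 had an adjusted p of 0.22. The stress-induced lumen proteins Creld2 and Manf had differences between the EBF1 and PAX5 changes of 0.51 and 0.30, with adjusted p of 0.16 and 0.28. Hyou1, the nucleotide exchange factor of BiP, had 0.29 with EBF1 and -0.10 with PAX5.

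On first-set arrays, Hyou1 was highest on EBF1 array 3 (1104, against 872 and 893 on the other EBF1 arrays), as was the lectin chaperone Calr (4334, against 3550 and 3447). The summed intensity of 19 stroma markers was 12604 on that array, against 3057 and 1147 on the other EBF1 arrays and 877 to 2504 on first-set controls, and 17 of the 19 had an EBF1 estimate above 0. The collagen gene Col1a1 was listed at 1 on control arrays 2 and 3 and at 132 on EBF1 array 3. Without EBF1 array 3, 30 of the 36 members lay above 0 with EBF1, with a median of 0.15, and 0 passed. The median over members was lowest on that array among the EBF1 arrays (0.03, against 0.14 and 0.15).

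The lectin chaperones and disulfide enzymes (7 members) held 0 genes past the test. With EBF1 their median log2 change was 0.10, from -0.04 (P4hb) to 0.15 (Pdia6), and with PAX5 it was -0.19, from -0.37 (Ero1a) to 0.15 (Calr). Canx, the membrane-bound lectin chaperone, had estimates of 0.01 with EBF1 (-0.24 to 0.26) and -0.02 with PAX5 (-0.30 to 0.26), among the narrowest bounds of the group. Pdia3, the isomerase that works with the lectin chaperones, did not overlap its controls with EBF1 (3267, 2749 and 2933 against 2688, 2727 and 2729), with a change of 0.13. The isomerase P4hb was lower on all PAX5 arrays than on any second-set control, with a change of -0.19 and a limma adjusted p of 0.78.

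Ero1a varied most of this group. It read 685, 1747 and 683 on first-set controls, 831, 1523 and 791 with EBF1, 728, 1755 and 756 on second-set controls, and 805, 743 and 704 with PAX5. Control array 2 and EBF1 array 2 stood far above the other arrays of their groups, and no PAX5 array did. With PAX5 the log2 change was -0.37 ± 0.41 (-1.31 to 0.58, limma adjusted p = 0.88), so the interval allows a change of more than 2-fold downward.

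Of the translocation channel, Sec61a1 and Sec61b are subunits of the pore and Ssr1 of the translocon-associated complex. Their EBF1 estimates ran from -0.03 to 0.06 and their PAX5 estimates from -0.13 to -0.07. All 3 intervals lay within 1.5-fold in both comparisons. Sec61a1 and Ssr1 were lower on all PAX5 arrays than on any second-set control, for example 2859, 2883 and 2845 against 3078, 3192 and 3154 for Ssr1.

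The degradation genes held the member with the highest EBF1 estimate. Syvn1, the ubiquitin ligase Hrd1 that marks misfolded proteins at the membrane, read 888, 668 and 809 on first-set controls and 1741, 1209 and 1082 with EBF1. It read 947, 693 and 893 on second-set controls and 1340, 1124 and 1216 with PAX5. Syvn1 was the member of this group whose EBF1 arrays and PAX5 arrays all lay above their own controls. The log2 change was 0.74 ± 0.19 with EBF1 (0.29 to 1.18, limma adjusted p = 0.20) and 0.57 ± 0.22 with PAX5 (0.08 to 1.07, adjusted p = 0.44), and neither passed. The difference between them was 0.17 (-0.33 to 0.66, adjusted p = 0.76). Over the alternatives the adjusted p ran from 0.082 to 0.46 with EBF1.

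Edem1, a mannosidase-like protein that hands misfolded glycoproteins to degradation, read 629, 763 and 437 on first-set controls and 797, 975 and 609 with EBF1. It read 673, 782 and 493 on second-set controls and 1020, 761 and 756 with PAX5. Taken as groups, values overlapped in both comparisons. Between control and EBF1 arrays of equal number, Edem1 was higher with EBF1 in all 3 pairs, by 0.33, 0.35 and 0.46 on the log2 scale. Its log2 change was 0.38 ± 0.23 with EBF1 (limma adjusted p = 0.58), and with array number as a replicate block the SE was 0.11 and the adjusted p 0.19. The EBF1 change was 0.17 without control array 3 and 0.22 without EBF1 array 2. With PAX5 it was 0.45 ± 0.26 (limma adjusted p = 0.68), and 0.24 without PAX5 array 1. Sel1l, the adaptor that holds Syvn1 in its complex, had -0.03 with EBF1 and -0.18 with PAX5, and its PAX5 arrays (860, 834 and 835) all lay below second-set controls (945, 1067 and 874). The Derlin channel proteins Derl1 and Derl2 and the scaffold Herpud1 lay near 0, with EBF1 estimates of 0.10, 0.11 and -0.002 and PAX5 estimates of 0.06, 0.08 and 0.04 in that order.

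The sensors showed no shared direction. Atf6, the sensor that is cut to release a transcription factor, read 514, 595 and 446 on first-set controls against 428, 499 and 480 with EBF1, and 553, 611 and 505 on second-set controls against 712, 638 and 666 with PAX5. The PAX5 arrays did not overlap their controls, and the EBF1 arrays did. The log2 change of Atf6 was -0.13 ± 0.13 with EBF1 (limma adjusted p = 0.75) and 0.29 ± 0.14 with PAX5 (-0.03 to 0.61, adjusted p = 0.59), and the difference of -0.42 had an adjusted p of 0.18.

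Ern1, the IRE1 sensor whose nuclease splices Xbp1, read 768, 810 and 492 on first-set controls, 607, 771 and 524 with EBF1, 815, 822 and 545 on second-set controls, and 576, 498 and 501 with PAX5. Control array 3 was the lowest control in each set, below all EBF1 arrays in the first and inside the PAX5 range in the second. The changes of Ern1 were -0.10 ± 0.21 with EBF1 (limma adjusted p = 0.90) and -0.40 ± 0.23 with PAX5 (adjusted p = 0.68). Eif2ak3, the PERK kinase that slows translation and raises ATF4, read 537, 455 and 339 against 519, 454 and 413 with EBF1, and 570, 473 and 392 against 546, 443 and 463 with PAX5. Its changes of 0.08 ± 0.17 and 0.07 ± 0.19 were the nearest to each other among the sensors, with adjusted p of 0.92 and 0.96.

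The transcription factors Xbp1, Atf4 and Ddit3 are controlled mainly after transcription or late in the response, by splicing, translation and ATF4 respectively, and the arrays measure transcript level alone. Xbp1 read 3359, 3480 and 2588 on first-set controls against 3787, 3213 and 3236 with EBF1, and 3348, 3473 and 2642 on second-set controls against 3020, 2993 and 2915 with PAX5. Atf4 read 2279, 3333 and 2670 against 3286, 3241 and 2882 with EBF1, and 2328, 3315 and 2703 against 2771, 2422 and 2445 with PAX5. Ddit3, which encodes the pro-death factor CHOP, read 399, 421 and 256 against 387, 571 and 269 with EBF1, and 430, 437 and 292 against 382, 279 and 280 with PAX5. Each transduced group overlapped its controls for all 3 genes. The EBF1 changes were 0.13 ± 0.14, 0.20 ± 0.15 and 0.15 ± 0.28 in that order, and the PAX5 changes were -0.07 ± 0.16, -0.08 ± 0.17 and -0.21 ± 0.31. Limma's adjusted p ran from 0.67 to 0.95 over these 6 values. The brightest of the Ddit3 probe sets gave a PAX5 change of -0.21 and another gave 0.50, so its sign depends on the probe set.

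The targets of the ATF4 arm varied most. Trib3, a pseudokinase that damps ATF4 signalling, read 294, 1810 and 480 on first-set controls and 554, 1343 and 521 with EBF1. It read 316, 1817 and 528 on second-set controls and 236, 329 and 309 with PAX5. Array 2 of the controls and of the EBF1 group was the highest of its group, and the PAX5 arrays lay near control array 1, with overlap. With PAX5 the log2 change was -1.25 ± 0.68 (-2.80 to 0.29, limma adjusted p = 0.66), and it was -0.55 without control array 2. The EBF1 change was 0.19 ± 0.61 and turned to -0.35 without control array 1.

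Asns, the asparagine synthetase induced by amino acid shortage, read 2369, 4459 and 3089 on first-set controls and 3205, 3699 and 3010 with EBF1. It read 2394, 4379 and 3074 on second-set controls and 1751, 1976 and 1949 with PAX5. The PAX5 arrays all lay below the lowest control, and the EBF1 arrays lay inside the control range. The change with PAX5 was -0.77 ± 0.24 (-1.31 to -0.24, limma adjusted p = 0.30) and -0.55 without control array 2. The EBF1 change was 0.04 ± 0.21, and the difference of 0.82 (0.28 to 1.36) had an adjusted p of 0.13.

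Chac1, a glutathione-cleaving enzyme, came nearest to a call. It read 247, 391 and 407 on first-set controls and 522, 642 and 498 with EBF1. It read 292, 415 and 468 on second-set controls and 279, 369 and 322 with PAX5. The EBF1 arrays lay above all their controls, while the PAX5 arrays overlapped theirs. The log2 change was 0.67 ± 0.19 with EBF1 (0.22 to 1.11, limma adjusted p = 0.23) and -0.30 ± 0.22 with PAX5 (adjusted p = 0.77). The difference of 0.97 ± 0.22 (0.47 to 1.46) had a limma adjusted p of 0.068. The adjusted p was 0.026 with PAX5 arrays 2 and 3 as separate samples and 0.039 without control array 1. It was 0.29 with all 12 arrays counted separately and 0.047 with array number as a replicate block. That block includes the PAX5 samples, whose pairing by number was not shown. Without PAX5 array 1, which leaves 1 PAX5 sample, the difference was 0.82.

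Ppp1r15a (GADD34), which reverses the translation block and is also an early-response gene, read 237, 241 and 190 on first-set controls and 304, 299 and 244 with EBF1. It read 162, 163 and 161 on second-set controls and 790, 207 and 224 with PAX5. All transduced arrays lay above the controls of their own set, and PAX5 array 1 stood far above the other PAX5 arrays. The controls, counted as the same hybridisations, read lower in the second set than in the first. PAX5 arrays 2 and 3 lay inside the first-set readings, so their lack of overlap holds against the second-set readings alone. With PAX5 the log2 change was 1.28 ± 0.42 (limma adjusted p = 0.35), and it was 0.38 without PAX5 array 1. The summed intensity of 12 immediate-early genes was 10322 on PAX5 array 1, against 4590 and 4788 on the other PAX5 arrays and 3441 to 4197 on second-set controls. The median of that list on PAX5 array 1 was 0.86 above its controls, with 9 of 12 genes above 0 in the comparison, and its part in the Ppp1r15a value was not tested. On EBF1 arrays the same sum was 5597, 3914 and 4282, against 4024, 3547 and 3139 on first-set controls, with 11 of 12 genes above 0.

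Sesn2, a stress-induced inhibitor of growth signalling, read 402, 460 and 444 on second-set controls and 308, 307 and 353 with PAX5. These values did not overlap. The log2 change of -0.43 ± 0.12 (-0.71 to -0.15) had the lowest limma adjusted p of any member with PAX5, 0.25. With EBF1 it was -0.06 (-0.31 to 0.18).

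**Figure D3:**
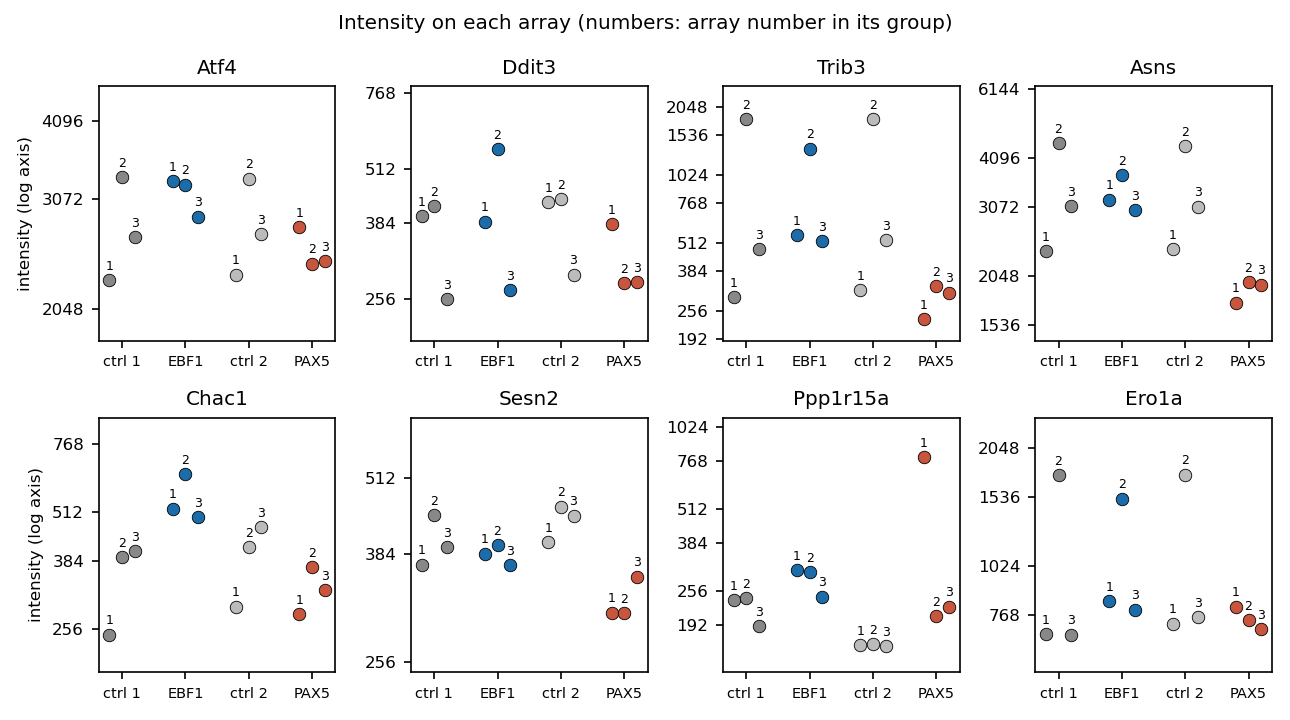
Intensity (y axis, log scale, a different range for each gene) of 8 genes on each array, by group, with the array number above each point. Trib3, Asns and Ero1a are highest on control array 2 in both sets, and Ppp1r15a reads 790 on PAX5 array 1 against 207 and 224 on PAX5 arrays 2 and 3.

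The members whose groups did not overlap were counted next. With EBF1, 6 members (16.7%, against 7.67% of all genes) had all arrays above first-set controls, namely Hsp90b1, Sdf2l1, Pdia3, Syvn1, Ppp1r15a and Chac1. None of the 36 had all EBF1 arrays below them, against 6.76% of all genes. With PAX5, 4 members (11.1%, against 9.34%) lay wholly above second-set controls, namely Calr, Syvn1, Atf6 and Ppp1r15a. For Ppp1r15a this did not hold against the first-set readings of the controls. A further 9 (25%, against 8.95%) lay wholly below them, namely Hsp90b1, Manf, Creld2, P4hb, Sec61a1, Ssr1, Sel1l, Asns and Sesn2. Between control and EBF1 arrays of equal number, 11 members (30.6%, against 20.4% of all genes) were higher with EBF1 in all 3 pairs and 0 were lower in all 3, against 17% of all genes. PAX5 arrays 2 and 3 are not independent, so the PAX5 counts rest on 2 samples, and 0 of the genes in these counts passed limma's adjusted p in the matching comparison.

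**Figure D4:**
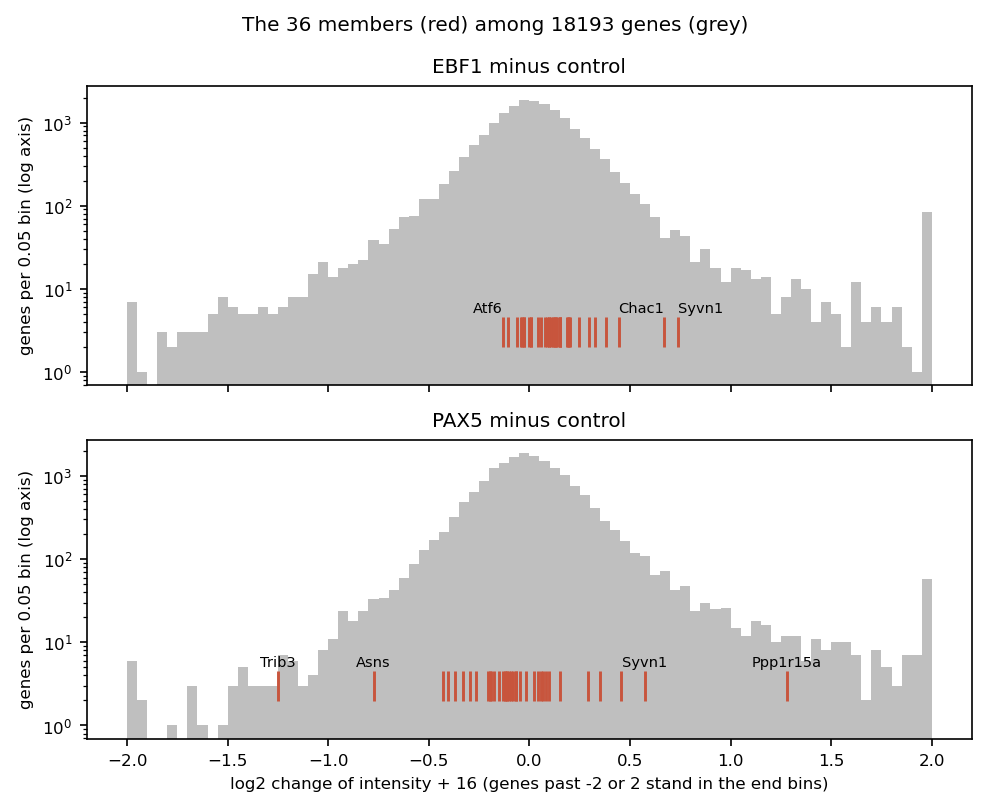
Distribution of log2 changes over 18193 genes (grey, log count axis, bins of 0.05) with the 36 members as red marks, for EBF1 (top) and PAX5 (bottom). The members sit inside the central mass with EBF1 (median 0.12) and with PAX5 (median -0.10), and Trib3 (-1.25) and Ppp1r15a (1.28) lie farthest out.

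The members with an ERSE or ERSE-II match could be set beside those without. With EBF1, 9 of 10 such members had estimates above 0 (median 0.13), beside 15 of 21 other members with a promoter window (median 0.11). With PAX5 the counts were 4 of 10 (median -0.06) and 6 of 21 (median -0.13). The medians of both classes lay close to each other in both comparisons. The 4 members with TGATGNAA had a median of -0.54 with PAX5, from -1.25 (Trib3) to 0.04 (Herpud1), and 0.12 with EBF1.

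Of the 36 members, 27 had more than 1 probe set, and 0 of the members' 90 probe sets passed limma's adjusted p in any comparison. The probe sets of a gene gave estimates of opposite sign for 11 of these 27 genes with EBF1 and for 9 with PAX5. With EBF1 these included Atf6, Ern1, Eif2ak3, Pdia3 and Pdia4, and with PAX5 Hspa5, Xbp1, Ddit3, Ern1 and Eif2ak3. The direction given for each of these genes is that of its brightest probe set. For Ern1 with PAX5 the 5 probe sets ran from -0.45 to 0.14, with the brightest at -0.40.

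Other genes of the pathway, taken from lists of related functions, comprise 141 genes in 9 lists. The lists were chosen with earlier results of these data known. With EBF1 0 of them were called, with PAX5 2 were (1.42%, against 0.874% of all genes), and for the difference 3 were (2.13%, against 1.94%), so the shares lie near the background. The called genes were Wfs1, Irf4 and, for the difference alone, Pou2af1. Among 14 further regulators of the response, Wfs1, the wolframin membrane protein that restrains ATF6, was called. It read 118, 118 and 71.3 on second-set controls and 579, 334 and 349 with PAX5, without overlap. Its log2 change with PAX5 was 1.99 ± 0.25 (limma adjusted p = 0.009), beside -0.06 with EBF1, and the difference of -2.06 had an adjusted p of 0.006. Without PAX5 array 1, which leaves 1 PAX5 sample, the change was 1.62 with an adjusted p of 0.10.

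In a list of 10 plasma cell genes, Irf4, a factor needed for plasma cell formation, read 90.1, 52.9 and 120 on second-set controls and 776, 511 and 557 with PAX5. Its change of 2.72 ± 0.34 had a limma adjusted p of 0.0085, and without PAX5 array 1 it was 2.46 with an adjusted p of 0.17. The difference between its EBF1 and PAX5 changes was -1.85 (limma adjusted p = 0.036, but 0.059 without control array 1 and 0.099 without EBF1 array 2). It also did not pass with all 12 arrays counted separately (0.13) or with 1 rather than 16 added to each intensity (0.09). The size of this difference stayed between -2.11 and -1.58 over all alternatives, and was -1.58 without PAX5 array 1. Pou2af1, the B-cell coactivator OBF-1, read 7.67, 8.14 and 5.77 on first-set controls and 272, 88.4 and 55.1 with EBF1, and its change of 2.48 ± 0.44 did not pass (limma adjusted p = 0.087) but passed without EBF1 array 1 or array 3 (0.020 and 0.0088). The difference of 2.60 from its PAX5 change passed (limma adjusted p = 0.038). Without control array 1, 2 or 3 or EBF1 array 2 it did not (0.075, 0.059, 0.053 and 0.078). Nor did it pass with all 12 arrays counted separately (0.072) or with 64 added to each intensity (0.12). Its size was 1.42 with 64 added and 3.95 with 1 added, and the first-set controls read below the 16 added otherwise. Without PAX5 array 1 the difference was 2.56. Prdm1, the master regulator of plasma cells, stayed at 23.7 to 51.0 on all 12 arrays, and the list's secretory member Derl3 at 9.42 to 34.6.

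Genes of amino acid supply and the wider ATF4 response lay low with PAX5, but none passed the test in the fit used here. Of 22 measured genes in that list, 20 had PAX5 estimates below 0 (median -0.34, lowest Cth at -1.497), where 51.8% of all genes lay below 0. None was called, and 5 of the 22 had an unadjusted limma p under 0.05, beside 9.45% of all genes. All 12 cytoplasmic aminoacyl-tRNA synthetases, which charge tRNAs with amino acids and many of which are ATF4 targets, also had PAX5 estimates below 0 (median -0.34, from -0.54 for Sars to -0.12 for Wars). Of these 0 were called and 5 of 12 had an unadjusted limma p under 0.05. That count was 1 without control array 2 and 10 without control array 1. In the amino acid list the 5 became 3 without control array 2 and 9 without control array 1. Without PAX5 array 1, where 1 PAX5 sample remains, the PAX5 medians were -0.26 for the synthetases and -0.27 for the amino acid list. With array number as a replicate block, 1 amino acid gene was called with PAX5 and 3 for the difference. The block includes PAX5 samples, for which pairing by number was not shown. For the difference in the fit used here, 8 of the 22 and 6 of the 12 had an unadjusted limma p under 0.05. The share of all genes was 17%. On single arrays the synthetase median was -0.39, -0.25 and -0.27 with PAX5, against -0.25, 0.26 and -0.01 on second-set controls. PAX5 arrays 2 and 3 thus lay near control array 1, and PAX5 array 1 below it. Without control array 2 the PAX5 median was -0.18 for the synthetases, with 11 of 12 below 0, and -0.22 for the amino acid list, with 18 of 22 below 0. With EBF1, 16 of the 22 and 8 of the 12 lay above 0, with medians of 0.10 and 0.06.

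**Figure D5:**
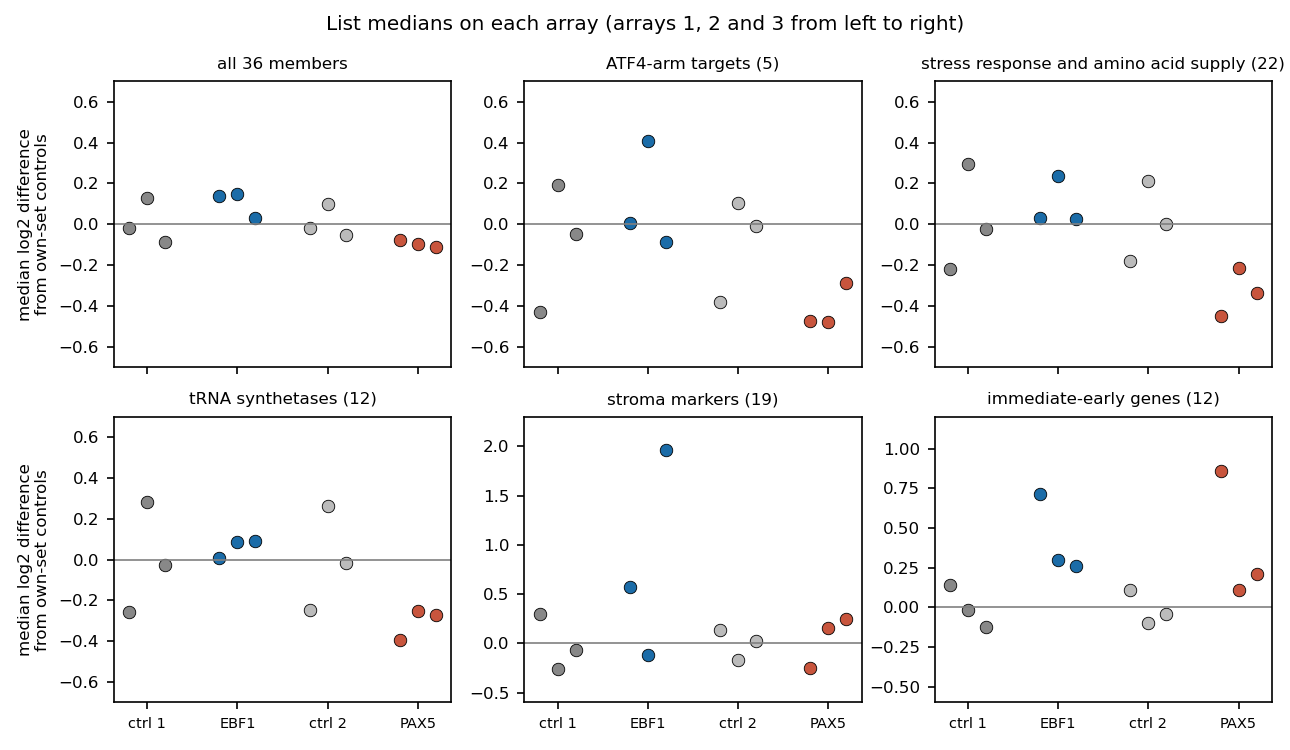
Median log2 difference from the mean of own-set controls (y axis, a different range in the last panels) on each array, for the 36 members and 5 gene lists, with points for arrays 1, 2 and 3 from left to right in each group. The ATF4-arm, amino acid and synthetase medians are below 0 on all 3 PAX5 arrays and on control array 1 and highest among controls on control array 2, while stroma markers peak on EBF1 array 3 (1.96) and immediate-early genes on PAX5 array 1 (0.86).

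The remaining lists lay near 0. N-glycosylation (17 genes) had medians of 0.03 with EBF1 and -0.12 with PAX5, translocon and signal peptide genes (19) 0.02 and -0.10, other degradation genes (17) -0.02 and 0.01, and other folding enzymes (18) 0.03 and 0.02. In each of these 4 lists 0 genes were called in any comparison. Cytosolic heat shock genes (13), which answer to HSF1 rather than to the endoplasmic reticulum, had medians of 0.09 and -0.01 and also 0 calls, with Hspa1b highest at 1.304 with EBF1 (limma adjusted p = 0.18).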

How the data were processed

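The deposited values are probe set intensities on a linear scale, per the file headers and values. Biotin-labelled cRNA was hybridised to Affymetrix arrays, per the labels' protocols, and the summarisation and normalization were not given in the sources used here. Of 45037 probe sets, 34945 had 1 symbol, 932 several and 9160 none. The brightest probe set with 1 symbol stood for a gene, which gave 18193 genes. From the deposited intensity, log2(intensity + 16) was taken, so fold changes of dim genes are understated. For each gene the offset between the control sets was removed and control arrays of equal number were averaged. limma 3.58.1 in R 4.3.3 fitted 3 control, 3 EBF1 and 2 PAX5 samples (5 residual and 3.53 prior degrees of freedom), with Benjamini-Hochberg adjustment over all genes, a threshold of 0.05 and 95% intervals. Leaving out PAX5 array 1 leaves 1 PAX5 sample, which is then assumed to vary like the other groups. The method was tested on simulated data with planted changes of 2-fold or more. That test therefore did not cover smaller changes. Figures used Python 3.11.15 with matplotlib 3.10.9.

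The members and lists were chosen with earlier results of these data known. By the rule, values on every array were given for members past the threshold, for the 5 with the largest absolute log2 change in the EBF1 and in the PAX5 comparison, and for Hspa5, Hsp90b1, Xbp1, Atf4, Atf6, Ern1, Eif2ak3 and Ddit3, and up to 5 called genes were named from each other list. Other genes given with values, such as Ero1a, Sesn2, Pdia3, Ssr1, Sel1l, Prdm1, Derl3, Cth and Hspa1b, were chosen after their values were seen. Deviations from group means of equal-numbered arrays correlated at 0.206, 0.405 and 0.223 for control and EBF1, which pairs them, and at 0.240, 0.0816 and 0.183 for control and PAX5, which does not. Alternatives changed the sample counting, pseudocount, filter on dim genes, normalization, probe set rule, variance model, replicate block and the arrays included.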

Additional observations from a re-analysis of the deposited data

Results flagged for a closer look

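Outside the 36 members, 3 of the 141 genes in the related lists (2.13%, against 1.94% of all genes) had EBF1 and PAX5 changes that differed from each other in limma, tested as a difference over all genes. For Wfs1 the EBF1 change minus the PAX5 change was -2.06 on the log2 scale, for Irf4 it was -1.85 and for Pou2af1 it was 2.60. With all 12 arrays counted separately, the Irf4 and Pou2af1 differences did not pass (limma adjusted p = 0.13 and 0.072). The comparisons share their controls, so the difference is that between EBF1 and PAX5 arrays, with the offset between the sets removed. Without PAX5 array 1, which leaves 1 PAX5 sample and lowers the all-gene calls from 353 to 55, the differences were -1.69, -1.58 and 2.56, with limma adjusted p of 0.077, 0.42 and 0.38.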

How the results depend on the processing

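No member passed with EBF1 or with PAX5 under any alternative. For the difference between the EBF1 and PAX5 changes, the count of members called moved from 0 to 1 (Chac1) with PAX5 arrays 2 and 3 as separate samples, with a trended and robust variance, and with array number as a replicate block (adjusted p = 0.047), and ran from 0 to 1 over the fits that leave out 1 array. Under the replicate block all-gene calls were 45 with EBF1, 228 with PAX5 and 622 for the difference, against 40, 159 and 353, and with control and EBF1 samples only, an alternative added after seeing the data, 10 with EBF1. Over all alternatives these counts ran from 10 to 406, 28 to 357 and 55 to 879. The highest EBF1 count came without EBF1 array 3, and the lowest PAX5 and difference counts without PAX5 array 1.

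Of 987 values of named genes under alternatives, 929 kept their direction and side of the threshold, 15 lost a call, 9 gained one and 34 turned direction. With the mean of all probe sets, Ern1 with EBF1 turned to 0.050 and Ddit3 with PAX5 to 0.15. With quantile normalization, Sdf2l1 with PAX5 turned to -0.00070 and the Eif2ak3 difference to -0.0075. The other turns came from leaving out 1 array. With EBF1 those ranges were -0.33 to 0.025 for Ern1, -0.10 to 0.22 for Eif2ak3, -0.0071 to 0.21 for Xbp1, -0.11 to 0.41 for Ddit3, -0.35 to 0.93 for Trib3, -0.17 to 0.28 for Asns and -0.21 to 0.044 for Wfs1. With PAX5 they were -0.24 to 0.024 for Hspa5, -0.035 to 0.13 for Sdf2l1, -0.061 to 0.20 for Eif2ak3, -0.19 to 0.0061 for Xbp1, -0.20 to 0.049 for Atf4 and -0.35 to 0.079 for Pou2af1. For the difference they were -0.23 to 0.14 for Edem1, -0.035 to 0.30 for Syvn1 and -0.078 to 0.14 for Eif2ak3. The cause was not tested. The number of samples, 2 with PAX5, limits all of these values.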
